A study of Mus musculus with 18 samples.

Results

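The complement system was followed in cultured mouse macrophages through 8 genes, taken as a list of symbols. They encode the 3 chains of C1q (C1qa, C1qb and C1qc), 3 further components (C3, Cfb and Cfp) and 2 receptors for complement fragments (C3ar1 and C5ar1), and are 8 of the 49315 genes counted in each of 18 libraries. RNA came from bone marrow-derived macrophages (BMDMs) of C57BL/6J mice, differentiated in medium with 20% FBS and 20% L929-conditioned medium. The labels give 2 genotypes, WT and HDAC3 KO, and 3 treatments, with 3 libraries in each of the 6 groups. Macrophages were left without treatment, or cocultured for 45 minutes with K562 cells, a human leukemia line, and kept for a further 5 h after the K562 cells had been washed off. The K562 cells were either apoptotic cells (ACs), made by 15 minutes of UV-B irradiation, or non-apoptotic cells (NACs). According to the methods, the KO mice (M-HDAC3-/-) carry a floxed exon of Hdac3 deleted by Cre under Lyz2, a gene of myeloid cells, and the controls labelled WT are HDAC3 f/f mice. Below, WT and KO stand for these labels. The methods give 3 animals per group, naming the 2 genotypes, and do not say whether the treatments of a genotype shared animals. The libraries are numbered as biological replicates. The main tests treat them as independent, which would not hold between treatments if animals were shared.

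Complement is a set of plasma and cell-derived proteins that tag particles and dying cells for uptake. C1q starts the classical pathway by binding antibody or exposed surface molecules, and is made largely by macrophages; C3 is the hub on which all pathways converge, factor B (Cfb) and properdin (Cfp) form and steady the alternative-pathway convertase, and cleavage of C3 and C5 releases the peptides C3a and C5a. C3ar1 and C5ar1 are the G protein-coupled receptors for those peptides on myeloid cells.

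Values are CPM, counts relative to the library total, after TMM scaling, a correction for differences in library composition. Tests are edgeR's quasi-likelihood test over all genes that passed a low-count filter, with Benjamini-Hochberg adjustment, and a gene is called where its adjusted p is under 0.05. All 8 genes passed the filter in every comparison. Library totals ranged from 4704491 to 26421267 counts, the smallest being replicate 1 of the untreated KO group. The TMM factors, which would be near 1 in libraries of like composition, ranged from 0.741 to 1.52. Hdac3 ranged from 3.38 to 48.7 CPM in WT and from 4.66 to 74.6 CPM in KO, and gave no separation of the labels. These counts cover the whole gene, with exons outside the floxed one, so they do not check the deletion. All 10 macrophage markers were detected, with a summed level of 7217 to 20517 CPM, against 6.76 to 237 CPM for 10 fibroblast and stromal genes and 222 to 1269 CPM for 10 granulocyte genes. As these are bulk samples, fewer expressing cells and less RNA per cell cannot be told apart.

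The members lie at 6 loci and all are on the minus strand of GRCm38. C1qb (chr4:136880129-136886187), C1qc (chr4:136889804-136893065) and C1qa (chr4:136895917-136898803) are neighbours in that order. C3 (chr17:57203970-57228136) and Cfb (chr17:34856374-34862518) are on chromosome 17, C3ar1 is at chr6:122847138-122856161, C5ar1 at chr7:16246743-16259540 and Cfp at chrX:20925454-20931555. The counted exons of 7 members overlap no other gene. Of the exonic bases of Cfb, 79.5% are shared with Gm20547, a gene on the same strand listed at 0 counts in every library, so the level of Cfb is uncertain.

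Because the C1q genes are neighbours whose levels differed between groups in different ways, and the 2 receptors had their highest mean in the same group as C1qc, the promoters of C1qc, C1qb, C3ar1 and C5ar1 are shown. Promoter windows from RefSeq (GRCm38.p6, 250 bases before to 50 after the start) were held for 6 of the 8 members; C1qa and Cfb are the others. Sequences run 5′ to 3′ on the minus strand, with matches to the ETS core AGGAAG in capitals. ETS factors include PU.1, the lineage factor of macrophages.
C1qc, chr4:136892865-136893164: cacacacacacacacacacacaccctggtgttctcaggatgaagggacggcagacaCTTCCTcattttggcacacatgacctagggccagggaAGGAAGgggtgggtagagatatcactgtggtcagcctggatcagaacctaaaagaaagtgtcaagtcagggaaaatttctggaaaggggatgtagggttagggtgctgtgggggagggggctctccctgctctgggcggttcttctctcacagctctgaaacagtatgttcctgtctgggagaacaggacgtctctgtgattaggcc
C1qb, chr4:136886151-136886450: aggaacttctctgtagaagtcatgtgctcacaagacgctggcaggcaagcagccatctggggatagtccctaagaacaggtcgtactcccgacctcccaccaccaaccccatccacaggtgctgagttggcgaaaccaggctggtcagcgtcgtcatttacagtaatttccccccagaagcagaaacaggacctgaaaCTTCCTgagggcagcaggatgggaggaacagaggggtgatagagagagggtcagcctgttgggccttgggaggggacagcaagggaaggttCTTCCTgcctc
C3ar1, chr6:122856108-122856407: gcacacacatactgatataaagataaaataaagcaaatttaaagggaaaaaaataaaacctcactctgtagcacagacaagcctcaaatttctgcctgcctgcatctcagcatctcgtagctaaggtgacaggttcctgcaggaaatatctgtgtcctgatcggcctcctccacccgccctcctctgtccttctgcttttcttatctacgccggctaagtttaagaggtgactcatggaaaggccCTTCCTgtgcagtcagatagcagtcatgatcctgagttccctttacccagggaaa
C5ar1, chr7:16259289-16259588: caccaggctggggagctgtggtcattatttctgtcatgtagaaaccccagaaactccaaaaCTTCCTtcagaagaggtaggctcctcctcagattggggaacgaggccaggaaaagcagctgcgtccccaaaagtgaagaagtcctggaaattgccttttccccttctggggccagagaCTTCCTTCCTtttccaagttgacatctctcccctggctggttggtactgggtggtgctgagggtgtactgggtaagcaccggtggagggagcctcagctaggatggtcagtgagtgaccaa
The ETS core, read on both strands as AGGAAG or CTTCCT, had 2 matches in the C1qc window, 2 in C1qb, 1 in C3ar1 and 3 in C5ar1, where 2 of the 3 overlap. It had none in C3 or Cfp, and 35.4% of 32851 promoter windows of this length hold it. With the start counted as base 0, the matches lay at -52 to -47 and 39 to 44 in C1qb and at -194 to -189 and -157 to -152 in C1qc. The AP-1 motif TGANTCA, held by 7.8% of windows, matched in C3ar1 at -22 to -16 without overlapping the ETS match, and the C/EBP motif TTGCNNAA, held by 10.8%, matched in C3 at -45 to -38. The counted gene model of C1qc starts 151 bases, and that of C5ar1 202 bases, upstream of the RefSeq start used for these windows.

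The 3 C1q chains and properdin were among the most abundant messages of these macrophages. On the scale of CPM per kilobase of exon, the mean level over 18 libraries was 4486 ± 1589 (SD) for C1qb, 2721 ± 1122 for C1qa, 1118 ± 430 for Cfp and 827 ± 457 for C1qc. These means ranked 14, 22, 69 and 93 among all genes. The receptors followed, C3ar1 with 164 ± 67.8 and C5ar1 with 71.2 ± 28.4 CPM per kilobase, then C3 with 27.4 ± 24.3 and Cfb with 0.408 ± 0.312. The ranges over libraries of neighbours in this order overlapped, except between C1qc (348 to 1882) and C3ar1 (58.3 to 294) and between C3 (5.81 to 107) and Cfb (0.0889 to 1.48). Cfb was counted 1 to 84 times per library and was called in no comparison by edgeR's quasi-likelihood test with all libraries.

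**Figure D1:**
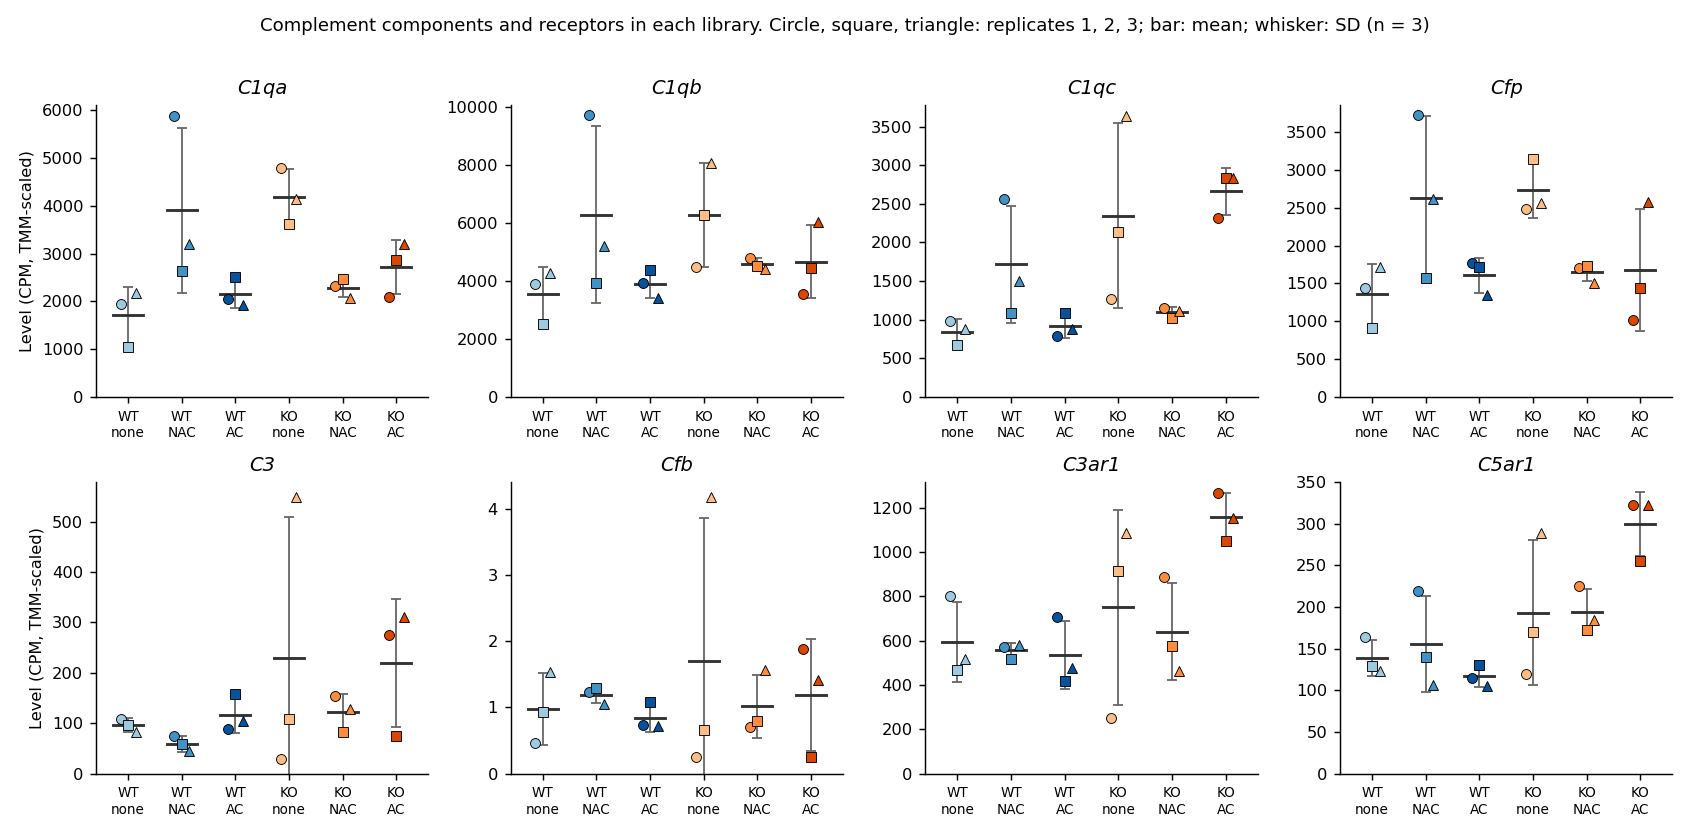
Level of each gene (y axis, TMM-scaled CPM, from 0) in the 6 groups (x axis); points are libraries, bars means and whiskers SD over 3 libraries, ending at 0 where they would go below it. C1qc, C3ar1 and C5ar1 in KO with ACs lie above every WT library with ACs, while C1qa, C1qb and Cfp do not.

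C1qc was the 1 member called in KO against WT with ACs. In WT with ACs its level was 787, 1083 and 881 CPM in replicates 1 to 3, and in KO with ACs it was 2312, 2836 and 2836 CPM. The KO libraries were all above the WT libraries, with means of 2661 ± 302 and 917 ± 151 CPM (SD, n = 3). In KO against WT with ACs, C1qc rose by 1.48 on the log2 scale (SE 0.40, adjusted p = 0.0472, edgeR's quasi-likelihood test). It was 1 of 8 members called, where 3.75% of 12304 genes were called. With TMM scaling, untreated KO against WT gave a value of similar size without a call (1.36, adjusted p = 0.0665). That untreated value was 0.36 to 1.47 under the alternatives with all libraries kept, and 0.99 to 1.61 with 1 library left out. The test of whether the genotypes responded differently to ACs over no treatment gave 0.06 for C1qc (SE 0.59, adjusted p = 0.964, edgeR's quasi-likelihood test). ACs over no treatment gave 0.03 in WT (adjusted p = 0.963) and 0.33 in KO (adjusted p = 0.748). With an offset for the GC and length trend of each library, the KO value was 1.05 (0.423) and the test of the difference 1.28 (0.237).

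The other 2 chains of the same protein differed less between the genotypes. C1qa was 2055, 2500 and 1930 CPM in WT with ACs and 2097, 2870 and 3201 CPM in KO with ACs. C1qb was 3927, 4372 and 3415 CPM in WT and 3535, 4431 and 6043 CPM in KO. For both chains the groups overlapped, and neither was called.

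Within KO macrophages, C1qc was also higher with ACs than with NACs. It was 1147, 1022 and 1118 CPM with NACs, below all 3 libraries with ACs given above, and ACs over NACs gave a log2 difference of 1.29 (SE 0.39, adjusted p = 0.0382, edgeR's quasi-likelihood test). Here too C1qc was 1 of 8 members called, beside 7.38% of 12244 genes. C1qa was 2330, 2461 and 2071 CPM with NACs and C1qb was 4809, 4512 and 4421 CPM. The groups of both chains overlapped, with 1 C1qa library with NACs just below the lowest with ACs.

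In WT macrophages C1qc and C1qa were lower with ACs than with NACs in all libraries, without a call. Groups were apart, in either direction, for 10.4% of genes in this comparison. C1qc with NACs was 2559, 1090 and 1501 CPM and C1qa was 5875, 2638 and 3206 CPM, all above the WT libraries with ACs, for C1qc by as little as 1090 against 1083 CPM. ACs over NACs gave a log2 difference of -0.86 for C1qc (SE 0.38, adjusted p = 0.898, edgeR's quasi-likelihood test) and -0.81 for C1qa (SE 0.38, adjusted p = 0.898), in a comparison where 0 of 11844 genes were called, 493 had an unadjusted p under 0.05 and DESeq2 called 0. Without replicate 1 of WT with NACs they were -0.48 and -0.42. The test of the difference between the genotypes in this response gave 2.18 on the log2 scale for C1qc (SE 0.51, adjusted p = 0.0582, edgeR's quasi-likelihood test), where 0.0765% of 13076 genes were called, and 1.74 to 2.27 with 1 library left out (adjusted p 0.0139 to 0.173). C1qc was named in this test after its value was seen.

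Both C1qc calls were close to the threshold and depended on which libraries were used. Leaving out each library in turn kept the KO against WT log2 fold change between 1.40 and 1.66, but the adjusted p stayed under 0.05 only without replicate 2 of KO with ACs (0.0348). It was 0.0534 to 0.313 without any 1 of the other 5 libraries, highest without replicate 1 of KO with ACs, a fit in which 0 of 12723 genes were called (1810 at an unadjusted p under 0.05). For ACs over NACs in KO the range was 1.21 to 1.37, and again the call held only without replicate 2 of KO with ACs (adjusted p = 0.0227, against 0.0557 to 0.2001 for the other 5, highest without replicate 2 of KO with NACs). The plot of C1qc under each processing choice shows that the size moved little while the call came and went.

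**Figure D2:**
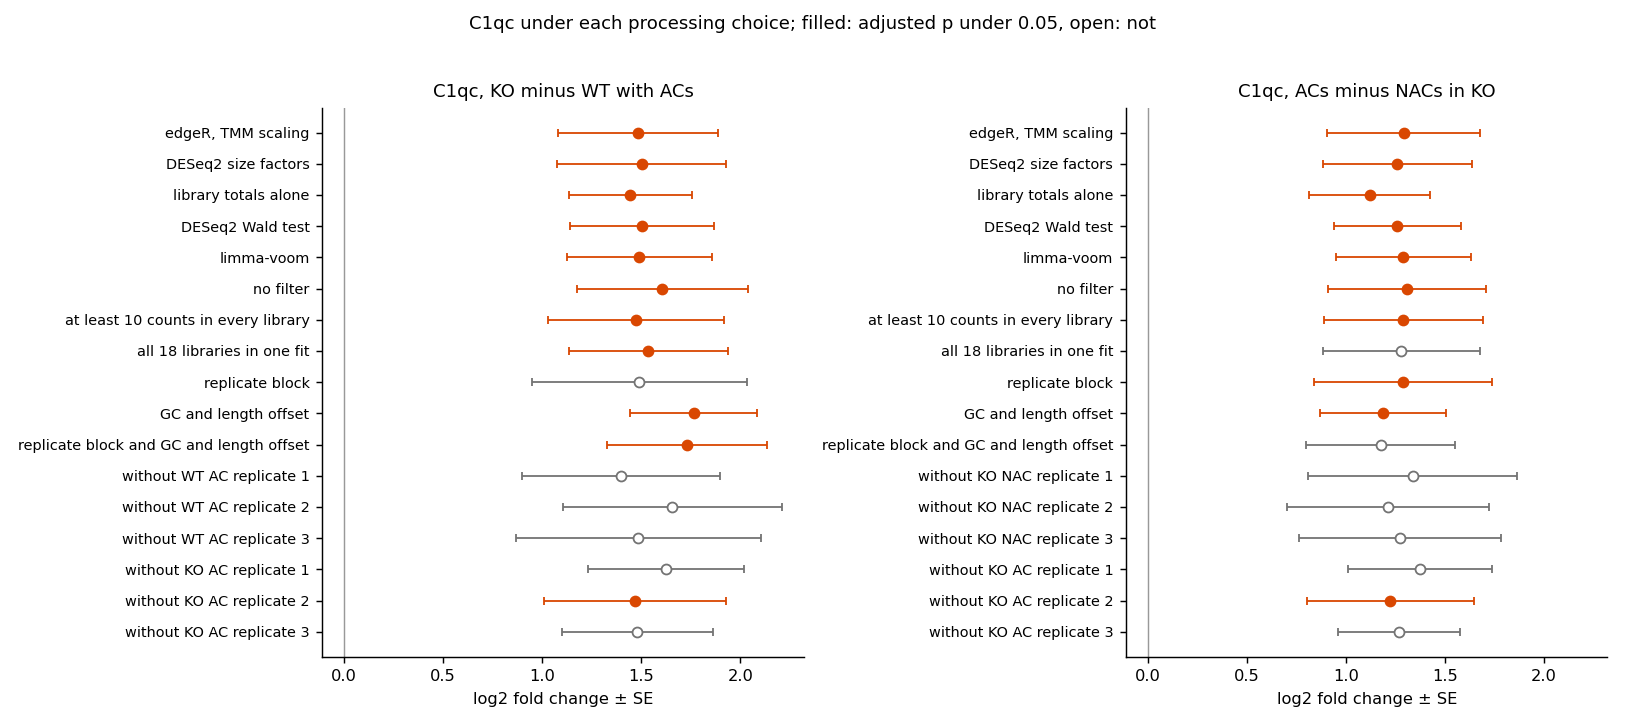
Log2 fold change of C1qc (x axis, whiskers SE) under each processing choice (y axis), for KO minus WT with ACs on the left and ACs minus NACs in KO on the right; filled points have an adjusted p under 0.05 and open points do not. All values lie above 1, and most open points are those with 1 library left out.

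The balance of the C1q chains was then compared within each library, a measure added after the levels had been seen, which needs no scaling between libraries. The ratio of C1qc to C1qb counts was 0.654, 0.640 and 0.469 in KO with ACs. In the 9 WT libraries it ran from 0.2005 to 0.288 and in KO with NACs from 0.227 to 0.253. Every KO library with ACs thus lay above all 12 of these. In untreated KO it was 0.283, 0.338 and 0.451, the first within the WT range and the others between it and KO with ACs.

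The mean ratio was 0.588 ± 0.103 in KO with ACs and 0.235 ± 0.031 in WT with ACs (SD, n = 3), a difference of 2.48-fold between the geometric means. Against KO with NACs (0.239 ± 0.013) the difference was 2.43-fold. Both gave an exact two-sided permutation p of 0.1, the smallest that 3 libraries against 3 can give. C1qc was chosen for the ratio with its levels known and was itself apart in both comparisons, so this is no separate support. How often ratios of other gene pairs were apart was not computed, and the ratios below are descriptions. The C1qc to C1qb ratio was also apart, with the same p, in KO against WT untreated (1.46-fold) and ACs over no treatment in KO (1.66-fold). It was apart in the other direction in KO against WT with NACs (0.865-fold), ACs over NACs in WT (0.847-fold) and NACs over no treatment in KO (0.682-fold). C1qc against C1qa showed 2.34-fold and 2.06-fold for the same comparisons. The ratio of C1qa to C1qb was 0.523, 0.572 and 0.565 in WT with ACs and 0.593, 0.648 and 0.530 in KO with ACs, with overlapping groups (1.06-fold, exact permutation p = 0.4). In the other comparisons of groups it ran from 0.733-fold to 1.44-fold. Its groups were also apart in some of these. Untreated KO (0.512 to 1.07) lay above untreated WT (0.420 to 0.506), and KO with NACs (0.468 to 0.545) below WT with NACs (0.604 to 0.674). In WT, each treatment was apart from the others in this ratio. Replicate 1 of untreated KO, the shallowest library, stood apart in C1qa to C1qb with 1.07, where the other 17 libraries were between 0.420 and 0.674.

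**Figure D3:**
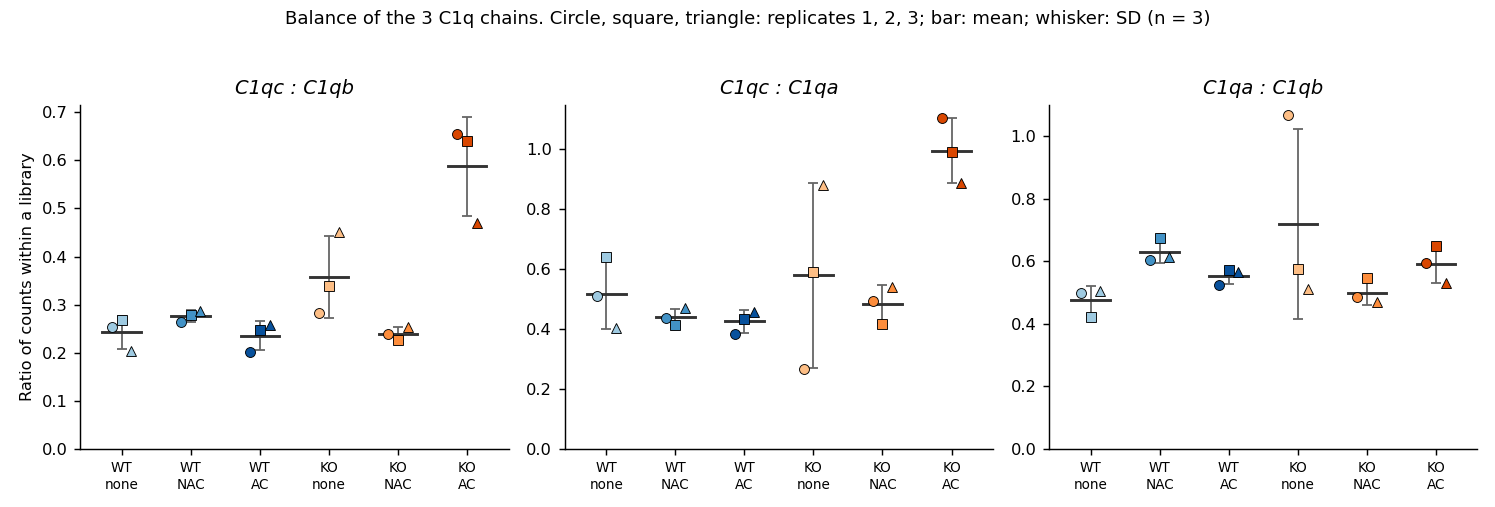
Ratio of the counts of 2 C1q chains within a library (y axis, from 0) in the 6 groups (x axis); points are libraries, bars means and whiskers SD over 3 libraries. The C1qc to C1qb ratio of KO with ACs (0.469 to 0.654) lies above every other group, and C1qa to C1qb shows no such step.

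The 2 receptors had their highest levels in the same group as C1qc. C3ar1 was 707, 417 and 478 CPM in WT with ACs and 1268, 1053 and 1154 CPM in KO with ACs. C5ar1 was 115, 130 and 105 CPM in WT with ACs and 322, 256 and 322 CPM in KO with ACs. The groups of both genes were apart, as were those of 28.3% of genes in this comparison. On the log2 scale the differences were 1.06 for C3ar1 (SE 0.40, adjusted p = 0.116, edgeR's quasi-likelihood test) and 1.30 for C5ar1 (SE 0.39, adjusted p = 0.0622), so that neither was called.

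Whether the receptors were called depended on the tool, the filter and the libraries used. DESeq2's Wald test, which called 11.2% of the genes, called both (adjusted p = 0.0418 for C3ar1 and 0.00745 for C5ar1). A GC and length offset, which removes a per-library trend of counts with base composition and exonic length, also gave both calls (1.53 on the log2 scale, adjusted p = 0.0129, and 1.11, adjusted p = 0.0231, in edgeR), with 9.19% of genes called. With that offset C1qc was 1.77 (adjusted p = 0.0087). C5ar1 alone of the pair was called by edgeR with no filter and with all 18 libraries in 1 fit. With 1 library left out, C5ar1 was 1.26 to 1.44 and called only without replicate 2 of KO with ACs (adjusted p = 0.0279, with 13.3% of genes called, and up to 0.313 otherwise), and C3ar1 was 0.94 to 1.34 and not called (0.0859 to 0.376).

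Against NACs in KO cells, the receptors were again higher with ACs. C3ar1 was 888, 575 and 462 CPM and C5ar1 was 225, 172 and 184 CPM with NACs, below every KO library with ACs, where 29.3% of genes had groups apart. On the log2 scale the differences were 0.86 for C3ar1 (SE 0.39, adjusted p = 0.161, edgeR's quasi-likelihood test) and 0.64 for C5ar1 (SE 0.37, adjusted p = 0.280). With 1 library left out they were 0.64 to 1.18 and 0.52 to 0.77, with no call. The genotype average over the 3 treatments, in which 1.44% of 13662 genes were called, gave 0.72 for C5ar1 (SE 0.21, adjusted p = 0.0651) and 0.79 for C1qc (SE 0.23, adjusted p = 0.0648) with the same test, both named after their values were seen.

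Under the GC and length offset, C3ar1 joined C1qc among the calls against NACs. ACs over NACs in KO gave 1.54 for C3ar1 (adjusted p = 0.0262, edgeR's quasi-likelihood test) and 1.19 for C1qc (adjusted p = 0.0476), with 5.22% of genes called. The genotype difference in that response gave 1.93 for C3ar1 (adjusted p = 0.0461) and 1.75 for C1qc (adjusted p = 0.0468), with 1.64% called. In the genotype average, where 1.57% were called, C1qc was the 1 member called (0.79, adjusted p = 0.0476). C5ar1 was called in none of these 3 tests.

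The remaining 5 members, C1qa, C1qb, C3, Cfb and Cfp, had log2 fold changes of -0.01 to 0.83 for KO against WT with ACs and overlapping groups. The median over the 8 members was 0.61, beside -0.01 over all genes tested, and 7 of 8 were above 0. For ACs over NACs in KO the same 5 members ran from 0.03 to 0.84, with a member median of 0.45 beside 0.09 over all genes.

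**Figure D4:**
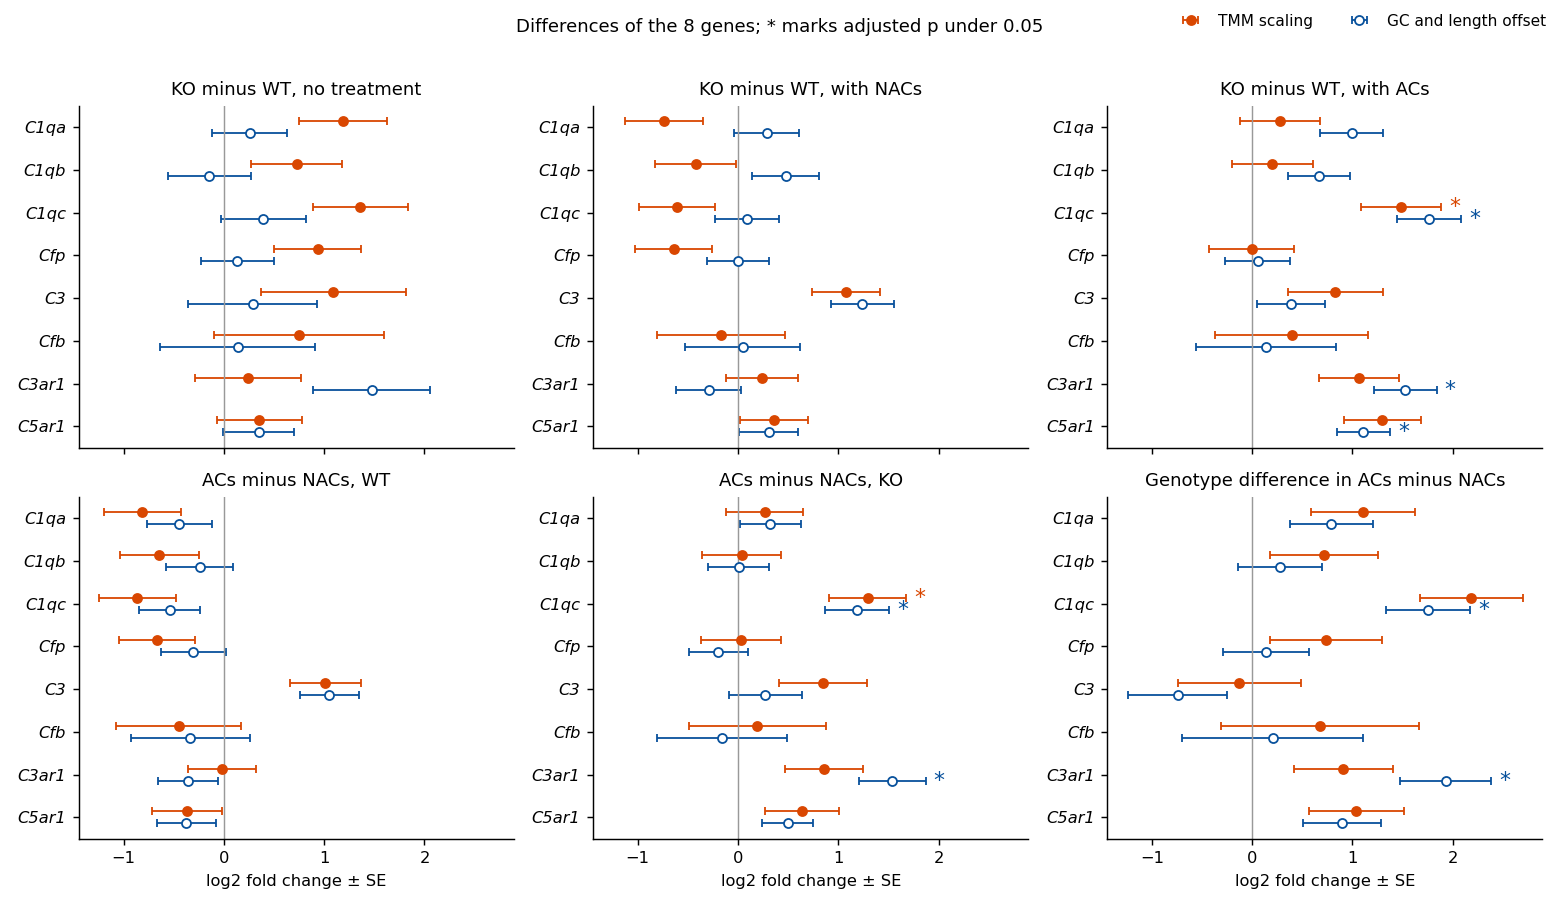
Log2 fold change of each gene (x axis, whiskers SE) in 6 comparisons, filled with TMM scaling and open with the added GC and length offset; asterisks mark an adjusted p under 0.05. C1qc, C3ar1 and C5ar1 stay above 0 under both in KO minus WT with ACs and in ACs minus NACs in KO. In ACs minus NACs in WT they were -0.86, -0.02 and -0.37 with TMM scaling. The C1qa, C1qb, C1qc and Cfp values without treatment lie nearer 0 under the offset.

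Other values moved with the AC comparisons. Library totals were higher in KO with ACs (18495507 to 22664522) than in WT with ACs (9385094 to 14929827). The summed macrophage markers were 15420 to 17844 CPM in KO with ACs and 10043 to 11844 CPM in WT with ACs, although 0 of 10 were called there. Elane, the 1 granulocyte gene called of 9 tested, fell by 2.26 on the log2 scale. The median of these 9 was -0.77, with 3 above 0. In KO, 4 of 10 fibroblast genes (Col1a2, Col3a1, Pdgfrb and Thy1) were called higher with ACs than with NACs. Of 10 granulocyte genes only Ltf was called higher, while their median was -0.46 on the log2 scale, with 4 above 0. Summed granulocyte genes overlapped, at 443 to 765 CPM with ACs and 290 to 915 CPM with NACs. The summed fibroblast genes were 84.8 to 237 CPM with ACs and 8.24 to 46.9 CPM with NACs. Their part in the C1qc and receptor values was not tested.

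C3, the hub component, was called in no comparison by edgeR's quasi-likelihood test with all libraries and the low-count filter. Its values turned on single libraries. For KO against WT with ACs, C3 was 1.31 without replicate 2 of KO with ACs (adjusted p = 0.0451) and 0.54 without replicate 3 (0.513). For ACs over NACs in KO it was 1.25 (0.00874) and 0.54 (0.513) without the same libraries. Without replicate 2, 13.3% and 23.9% of genes were called, and no other library left out gave a C3 call in these comparisons. In WT it was 75.7, 58.7 and 44.1 CPM with NACs, below the 87.8, 158 and 104 CPM with ACs and the 109, 97.3 and 82.0 CPM of untreated cells. ACs over NACs in WT gave 1.01 on the log2 scale (SE 0.35, adjusted p = 0.898, edgeR's quasi-likelihood test), and NACs over no treatment gave -0.77 (SE 0.38, adjusted p = 0.139). Groups were apart for 10.4% and 29.7% of genes in these comparisons.

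In KO, C3 was more spread than in WT without treatment and with ACs. It was 29.9, 109 and 549 CPM untreated, 155, 83.5 and 129 CPM with NACs and 275, 74.8 and 310 CPM with ACs. With NACs, all KO libraries were above all WT libraries, by 1.08 on the log2 scale (SE 0.34, adjusted p = 0.0965, edgeR's quasi-likelihood test). In that comparison 0.864% of 11923 genes were called, 26.9% had groups apart, and 0 of 8 members were called. C3 was called there with no filter (adjusted p = 0.0331) or without replicate 2 of WT with NACs (0.0244, with 24.6% of genes called, against up to 0.392 without any other library). C1qa was the other member apart there, with -0.74 (SE 0.39, adjusted p = 0.236), and -0.29 without replicate 1 of WT with NACs. With the GC and length offset, under which 0.0419% of genes were called, C3 was 1.24 (adjusted p = 0.118) and C1qa was on the other side of 0 at 0.28.

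Without treatment every KO library was above every WT library for the C1q chains and properdin, without a call. C1qa was 1936, 1053 and 2167 CPM in WT and 4790, 3617 and 4132 CPM in KO. C1qc was 986, 672 and 874 CPM in WT and 1268, 2128 and 3634 CPM in KO. Cfp, the stabiliser of the C3 convertase, was 1443, 908 and 1710 CPM in WT and 2478, 3144 and 2564 CPM in KO. The groups of these 3 genes and of C1qb were apart, as were those of 40.9% of genes.

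None of the 4 was called, in a comparison with 11.6% of 12101 genes called. On the log2 scale the differences were 1.19 for C1qa (SE 0.44, adjusted p = 0.0797, edgeR's quasi-likelihood test), 0.73 for C1qb (SE 0.45, adjusted p = 0.249), 1.36 for C1qc (SE 0.47, adjusted p = 0.0665) and 0.94 for Cfp (SE 0.43, adjusted p = 0.133). Without the shallowest library, replicate 1 of untreated KO, 4 members (C1qa, C1qc, C3 and Cfp) were called, but so were 46.3% of all genes. C3, whose groups overlapped, was 1.59 there and -0.45 without replicate 3 of untreated KO. No other library left out gave a call of any of the 8 members. With the GC and length offset, C1qa was 0.26, C1qb -0.15, C1qc 0.39 and Cfp 0.13, and 0% of genes were called.

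Some values of the marker lists differed in the same comparison. Summed over 10 genes, dendritic cell markers were 766 to 984 CPM in untreated KO and 199 to 517 CPM in untreated WT. Only 2 of these 10 genes had a mean of at least 1 CPM over the 18 libraries, so the sum does not measure dendritic cell content. The 2 that could be tested, Batf3 and Bst2, had groups apart and were not called. Of 10 macrophage markers, Lyz2 and Mrc1 were called lower in KO. The part of these values in the C1q and Cfp differences was not tested.

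The exons of these 4 genes are rich in GC, with 59.5% in C1qa, 57.4% in C1qb, 56.7% in C1qc and 55.4% in Cfp, against 43.0% in C3ar1. Over 18 libraries, the log2 level of Cfp had a Pearson r of 0.83 with the fitted GC and length term for that gene, C1qa 0.70, C1qb 0.64 and C1qc 0.44. Outside these 4 genes, r was 0.64 for C5ar1, 0.63 for Cfb, 0.62 for C3 and -0.33 for C3ar1. The libraries share groups and depth with this term, so the r values are descriptions.

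For NACs over no treatment, the C1qa and C1qc values lay on opposite sides of 0 in the 2 genotypes with TMM scaling. Under the GC and length offset, C1qa was 0.12 in WT and 0.25 in KO, C1qc 0.11 and -0.08, and Cfp in KO was 0.18. With TMM scaling, WT gave 1.13 for C1qa (SE 0.46, adjusted p = 0.0838, edgeR's quasi-likelihood test) and 0.96 for C1qc (SE 0.44, adjusted p = 0.119), from the levels given above and C1qa levels of 5875, 2638 and 3206 CPM with NACs. Without replicate 1 of WT with NACs these were 0.68 and 0.52, and without replicate 2 both were called (adjusted p = 0.0274 and 0.0341), with 34.2% of genes. In KO the same comparison gave -0.71 for C1qa (SE 0.31, adjusted p = 0.159), -0.90 for C1qc (SE 0.39, adjusted p = 0.156) and -0.56 for Cfp (SE 0.30, adjusted p = 0.232). C1qc there was -1.22 and called without replicate 1 of untreated KO (0.00971, with 35.5% of genes called), and -0.57 without replicate 3. No member was called in either genotype by this test, where 8.52% and 6.54% of genes were, while DESeq2 called C1qa and C1qc in each, with 14.1% and 19% of genes, and groups were apart for 29.7% and 38.7%.

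The test of that genotype difference, added after the data had been seen, called C1qa (-1.72, SE 0.54, adjusted p = 0.0189, edgeR's quasi-likelihood test) and C1qc (-1.75, SE 0.58, adjusted p = 0.0234). It called 34.8% of all genes, beside 2 of 8 members. Cell type markers were called with them, lower for 2 of 3 dendritic cell, 2 of 6 B cell, 3 of 9 fibroblast and 1 of 10 granulocyte genes tested. Of 10 macrophage markers 3 were called higher and 2 lower, and the part of these genes in the C1q values was not tested. With the GC and length offset these values were 0.26 and -0.07 and neither was called. ACs over no treatment gave no member call in WT or KO (0% of genes called in each, with 1551 and 1761 genes at an unadjusted p under 0.05; DESeq2 called 5 and 15), and C1qa in KO (-0.50, SE 0.46, adjusted p = 0.5998) was the 1 member apart, beside 21.5% of genes.

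Across the 18 libraries, C1qa and C1qb had a Pearson r of 0.87 on log2(CPM + 1), C1qb and Cfp 0.90, and C1qa and Cfp 0.89. C1qc had 0.73 with C1qb and 0.69 with C1qa, and 0.78 with C5ar1 and 0.62 with C3ar1. As deviations from group means, C1qc had 0.87 with C1qb, 0.52 with C1qa, 0.80 with C5ar1 and 0.58 with C3ar1. C3ar1 and C5ar1 had 0.77. With C1qa, C5ar1 had 0.27 and C3ar1 0.03. These points share groups, depth and base composition, and the values are descriptions.

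Among 13662 genes, those most like C1qc over the 18 libraries were Hexa (r = 0.97), Cyb5r3 (0.96) and Mfsd12 (0.96). For C1qa they were Anapc11, Mydgf and Rack1 (0.95 to 0.96) and for C1qb Mpst, Pebp1 and Rps2 (0.94 to 0.96). For C3ar1 they were Mid1ip1, Ctsb and Vapb (0.94 to 0.96), and for C5ar1 Bcl7b, Lgmn and Wdr1 (0.93). For C3 they were Rcsd1, Gnpda1 and Stab1 (0.94 to 0.96), for Cfp Akr1a1, Dad1 and Krtcap2 (0.94 to 0.96), and for Cfb Mgl2, Slc7a7 and Gga2 (0.85 to 0.89).

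A list of 38 other complement genes placed the members in their pathway. Of 12 genes of initiation, C1ra, C4b and the ficolin Fcna had a mean of at least 1 CPM, as did Cfd and C8g of 8 genes of the alternative and terminal pathways. C2, with a mean of 0.551 CPM, shares 42.8% of its exonic bases with Gm20547 on the same strand, so its count is uncertain. The lectins Mbl1 and Mbl2 were at 0 counts in every library. Of 10 inhibitors 4 passed that level (Serping1, Cd55, Cd59a and Cr1l), and of 8 receptors 6 did (C5ar2, Itgam, Itgax, Itgb2, Cd93 and Calr).

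With ACs, 17 of the 38 were tested for KO against WT, 2 were called higher and 1 lower, beside 3.75% of all genes called. Itgax, the alpha chain of complement receptor 4, was 4.71, 8.70 and 14.1 CPM in WT and 51.3, 38.2 and 90.1 CPM in KO, and rose by 2.64 on the log2 scale (SE 0.48, adjusted p = 0.0153, edgeR's quasi-likelihood test). Itgb2, the beta chain it shares with complement receptor 3, was 167, 143 and 181 CPM in WT and 679, 376 and 838 CPM in KO (1.88, SE 0.42, adjusted p = 0.0256). Both receptor chains thus stood apart in the same direction as C3ar1 and C5ar1.

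Cfd, the protease that cleaves factor B, fell by 3.82 on the log2 scale in KO with ACs (SE 0.91, adjusted p = 0.0315, edgeR's quasi-likelihood test). It had 52, 36 and 37 counts in WT and 0, 12 and 3 counts in KO, so the estimate rests on few reads. Without replicate 1 of KO with ACs, where no gene was called at all, the values were 2.80 for Itgax, 1.89 for Itgb2 and -3.18 for Cfd (adjusted p = 0.313 for each). Itgb2 also lost its call without replicate 3 of WT with ACs (0.0517) and Cfd without replicate 3 of KO with ACs (0.0795). Under the replicate block with the GC and length offset, Cfd was -3.32 and not called (0.0949).

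For ACs over NACs in KO, 3 of 17 tested were called higher and 0 lower, beside 7.38% of all genes called. Itgax (2.47, SE 0.41, adjusted p = 0.00101) and Itgb2 (1.52, SE 0.40, adjusted p = 0.0201, edgeR's quasi-likelihood test) rose. Serping1, the C1 inhibitor, had 0.279, 1.29 and 1.05 CPM with NACs (6, 13 and 27 counts) and 7.35, 5.76 and 3.71 CPM with ACs. It rose by 2.74 (SE 0.56, adjusted p = 0.00401, same test), an estimate that rests on few reads with NACs. Without replicate 1 of KO with ACs, where 0 of 12689 genes were called (2169 at an unadjusted p under 0.05), they were 2.54 for Itgax (adjusted p = 0.0919), 1.44 for Itgb2 (0.158) and 2.49 for Serping1 (0.133). All 3 calls were also lost with all 18 libraries in 1 fit (0.0874, 0.0928 and 0.0819). Itgb2 also lost its call without replicate 3 of KO with ACs (0.0707) or replicate 2 (0.148) or 3 (0.0606) of KO with NACs. The fibroblast genes called higher in this comparison are given above, and their part in the Serping1 value was not tested.

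Itgax was also called elsewhere. Without treatment, KO against WT gave 3.15 for Itgax (SE 0.80, adjusted p = 0.0331, edgeR's quasi-likelihood test). The Itgax groups overlapped there, with 9.04, 138 and 31.3 CPM in KO and up to 10.2 CPM in WT. Without replicate 2 of KO it was 1.48 (adjusted p = 0.130), and the call held only without replicate 1 of KO, with up to 0.167 without any other library. NACs over no treatment in WT gave 1.93 for Itgax (SE 0.43, adjusted p = 0.0106), and 1.04 without replicate 3 of the NAC group (adjusted p = 0.212). This NAC call was also lost without replicate 1 (0.0964) or 2 (0.0785) of untreated WT, with all 18 libraries in 1 fit (0.151) and with library totals alone (0.0796). Under the GC and length offset neither Itgax call held (0.120 for KO against WT and 0.133 for NACs). With the replicate block added to that offset both stayed lost (0.249 and 0.0739). In WT, 1 of 2 dendritic cell and 1 of 5 B cell genes tested were called higher with NACs than without treatment, beside 8.52% of all genes called. The summed dendritic cell markers, of which 2 of 10 had a mean of at least 1 CPM, were 582 to 1175 CPM with NACs and 199 to 517 CPM untreated. Their part in the Itgax value was not tested. No gene of the list was called in the other 5 of these 9 comparisons of groups.

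**Figure D5:**
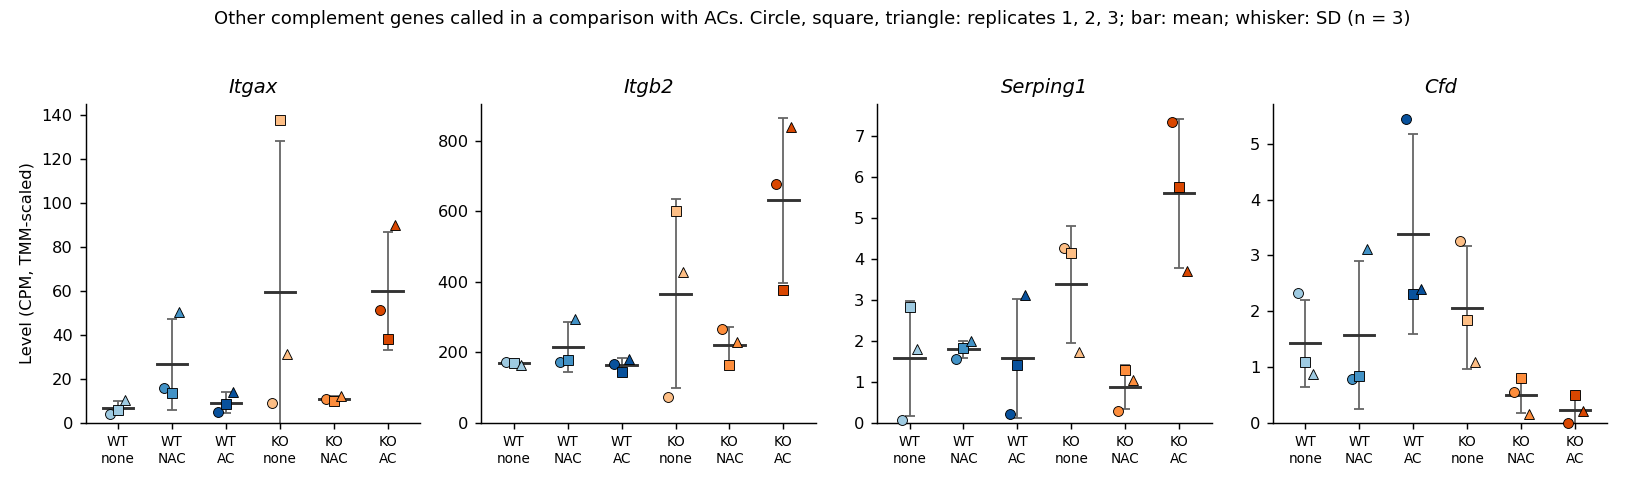
Level (y axis, TMM-scaled CPM, from 0) of 4 other complement genes called in a comparison with ACs, in the 6 groups (x axis); points are libraries, bars means and whiskers SD over 3 libraries, ending at 0 where they would go below it. Itgax, Itgb2 and Serping1 are higher in KO with ACs than in KO with NACs.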

How the data were processed

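RNA-seq was made from 18 libraries, 3 in each of 6 groups. The authors deposited unnormalized gene counts per library, and the submitters' processing notes name Trimmomatic 0.36, STAR 2.5.2b and featureCounts of Subread 1.5.2 on GRCm38. The strand setting and annotation release were not given in the sources used here. Of 49056 genes shared with GENCODE M21, 44858 have the same ends.

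For each comparison, the libraries of its groups alone entered edgeR 4.0.16 (R 4.3.3), with the filterByExpr filter (minimum count 10, total 15), TMM scaling, the robust quasi-likelihood test and Benjamini-Hochberg adjustment. Alternatives were DESeq2 1.42.0, limma 3.58.1 (voom), other scalings and filters, all 18 libraries in 1 fit, replicate number as a block, a GC and length offset (mgcv 1.9.3) and each library left out. Scripts were tested on simulated data. Correlations used a pseudocount of 1. Permutation tests were exact and two-sided. Members and lists were chosen with earlier results of these data known. All members were described; fold changes were printed where a member was called or its groups did not overlap, and for other complement genes where called. The nearest 3 genes by r were named. Exceptions are stated where they occur. Some results are not reported here. Replicates of a group were separate libraries that differed by a chi-squared per degree of freedom of 35.8 or more.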

Additional observations from a re-analysis of the deposited data

Results flagged for a closer look

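Responses that differed between the genotypes or treatments were looked at again. For ACs against NACs, every C1qc level with ACs was below those with NACs in WT and above them in KO. In WT this was by as little as 1083 against 1090 CPM. Groups were apart for 10.4% of genes in WT and 29.3% in KO. The difference between the 2 responses was 2.18 on the log2 scale (adjusted p = 0.0582, edgeR's quasi-likelihood test). In the same test Itgax gave 4.00 (adjusted p = 0.0303), and lost its call in the fit of all 18 libraries together (adjusted p = 0.0774), with library totals alone (0.0684), with limma-voom (0.0503) and with any 1 of 8 of the 12 libraries left out (up to 0.149, at 2.93, without replicate 3 of WT with NACs).

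For NACs against no treatment, the test added after the data had been seen gave -1.72 for C1qa and -1.75 for C1qc. It also gave 2.02 for the membrane inhibitor Cd59a, 2.20 for Cr1l, 1.95 for Itgam, -4.09 for Itgax and 1.55 for Cd93, all called with adjusted p from 0.00368 to 0.0350 by the same test, in which 34.8% of genes were called. With the GC and length offset, Itgax kept its call (-3.95, adjusted p = 0.0290), while Cd59a was 0.90 (0.350), Cr1l 0.32 (0.757), Itgam 1.77 (0.0730) and Cd93 0.62 (0.442). Leaving out 1 library took the adjusted p up to 0.129 for Cd59a, 0.149 for Itgam and 0.174 for Cd93, but not past 0.05 for Cr1l or Itgax. With all libraries kept, DESeq2's Wald test did not call Cd59a (0.0707) or Cd93 (0.0872). In edgeR, the fit of all 18 libraries lost Cd59a (0.0742), Itgam (0.0858) and Cd93 (0.0791). DESeq2 size factors lost them too (0.0847, 0.0510 and 0.103), and Cd93 was also lost with no filter (0.109) or the replicate block (0.0507). The alternatives for Cd59a were added after the data had been seen. Of the exonic bases of Itgam, 68.7% are shared with Gm49368, so its count is uncertain. C1qa was lower in KO than in WT with NACs and higher without treatment, which is the same difference of -1.72. With the GC and length offset that difference was 0.26, C1qa in KO against WT with NACs was 0.28, and C1qc in the response to NACs was -0.07.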

How the results depend on the processing

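With all libraries kept, C1qc was 1.45 to 1.77 on the log2 scale under 10 alternatives for KO against WT with ACs (adjusted p 0.00214 to 0.102) and 1.12 to 1.31 for ACs over NACs in KO (0.00284 to 0.0844), and with 1 library left out 1.40 to 1.66 (0.0348 to 0.313) and 1.21 to 1.37 (0.0227 to 0.2001). Counts of members called moved more, as did the share of all genes called, given in parentheses. For KO against WT with ACs (1 member), DESeq2 called 3 (11.2%), no filter 2 (2.99%), all 18 libraries in 1 fit 2 (4.82%), the replicate block 0 (3.03%), the GC and length offset 3 (9.19%), and the block with that offset 2 (4.69%); leaving out 1 library gave 0 to 3. For KO against WT with NACs (0), no filter called 1 (2.28%) and leaving out 1 library 0 to 1. Without treatment (0), DESeq2 called 3 (27.4%), limma-voom 1 (18.8%) and all 18 libraries 2 (24.2%), and leaving out 1 library gave 0 to 4 (46.3% at 4). For ACs over NACs in KO (1), all 18 libraries called 0 (1.84%) and the GC and length offset 2 (5.22%), and leaving out 1 library gave 0 to 2. For NACs over no treatment in WT (0), DESeq2 called 2 (14.1%) and the block 1 (15%), with 0 to 3 on leaving out 1 library, and in KO (0) DESeq2 called 2 (19%), with 0 to 1. For the genotype difference in ACs over NACs (0), DESeq2 called 1 (5.83%), no filter 1 (1.92%), the GC and length offset 2 (1.64%) and the block with it 2 (1.25%), with 0 to 1 on leaving out 1 library. For that in NACs over no treatment (2), library totals alone called 0 (30.8%), DESeq2 4 (43.4%), the GC and length offset 0 (12%) and the block with it 0 (9.02%), with 1 to 4 on leaving out 1 library. For the genotype average (0), DESeq2 called 3 (8.53%), no filter 2 (2.81%) and the GC and length offset 1 (1.57%), with 0 to 4 on leaving out 1 library. Directions reversed under the GC and length offset, and with the replicate block added, for C1qa in KO for ACs over no treatment (0.52 and 0.50) and NACs over no treatment (0.25 and 0.22), for C1qa in KO against WT with NACs (0.28 and 0.28), for C1qa in the genotype difference in NACs over no treatment (0.26 and 0.19), for C1qb in KO against WT untreated (-0.15 and -0.18) and for Cfp in KO for NACs over no treatment (0.18 and 0.17). The cause was not tested. Over the GC and length term, the log2 ratio of C1qc to C1qb for KO against WT with ACs was 1.04 against 1.31, and without treatment C1qc to C1qa gave 0.02. Library totals alone shifted the median of all genes without treatment to -0.42, from 0.06. In none of the comparisons of groups did every same-numbered pair of libraries correlate over 0.1 (-0.480 to 0.069 for WT and KO with ACs, 0.081 to 0.135 for NACs and ACs in KO), so the numbers were not taken as pairing; in WT with ACs and KO with NACs, which were not compared, they did (0.224 to 0.577). Few reads limit Cfb, Cfd and Serping1, and intervals of 3 libraries a group limit the rest.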
